A study of Mus musculus with 8 samples.

Results

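The genes of TFIID and of TBP-related proteins were followed through 2 RNA immunoprecipitations (IPs) of the germ cell protein DAZL. The 10 genes were Tbp, Tbpl1, Taf1, Taf2, Taf4a, Taf5, Taf7, Taf9, Taf10 and Taf12. Every probe that carried one of these gene names was taken, which gave 28 of the 41174 gene probes on the array, and 25 of them were bright enough to be tested. All 10 genes were therefore among the 19032 genes tested. The genes were selected on earlier results of these arrays, and which values entered the choice is not recorded in full, so the levels in the IPs, the mock IP and input were all counted as used. Their values in every comparison that involves the mock IP or input are therefore a description, with no test.

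The cells were in vitro primordial germ cells of the C57BL/6 129SV mixed strain, obtained by letting V6.5 embryonic stem cells that carry Dazl-GFP-V5 differentiate for 12 days after removal of feeder cells. In the V5 IP (values written below as with anti-V5) the fusion protein was pulled down through its V5 tag, and in the GFP IP (with anti-GFP) through its GFP tag. In the mock IP normal mouse IgG was used, and the input was total RNA with no antibody. Each of the 4 groups had 2 single-colour arrays, and all of them carried the fusion, so no group lacked tagged DAZL. Lysates were native, without ultraviolet crosslinking, and the labels do not say whether cells were sorted or replicates grown separately. P-values therefore reflect only how far these arrays scatter, part of which may be technical.

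TFIID is the general transcription factor that recognises core promoters of RNA polymerase II genes, and it is built from the TATA-binding protein TBP and a set of TBP-associated factors, the TAFs. Some TAFs also belong to the coactivator SAGA, and TBP serves RNA polymerases I and III in other complexes. Germ cells use variant forms of this machinery: in mice the TBP-like factor encoded by Tbpl1 is required for spermatid development, and Taf4b and Taf7l encode gonadal forms of TAF4 and TAF7. DAZL itself is a cytoplasmic protein that binds mRNA, mostly in the 3′ untranslated region, so the arrays read how much of each mRNA came down with it, not the activity of TFIID.

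Signals are normalised log2 intensities, that is log2 of the array's processed intensity minus the array's own 75th percentile. A value of 0 is the level of that percentile, and a level is compared only for the same probe across arrays. The 75th percentile was 352 intensity units on mock IP array 1, 767 on mock IP array 2 and between 641 and 1130 on the other 6. Between 61.3% of probes (mock IP 1) and 70.5% (input 1) were well above background, as were 21 of the 28 TFIID probes on mock IP 1 and 24 to 26 on the other 7 arrays. Mock IP 1 stood apart on the second principal component, which held 24.5% of the variance. In input, all 12 tested markers of germ cells and pluripotency were well above background on both arrays. So were 7 of 7 mesoderm, 5 of 7 endoderm, 6 of 6 neural, 6 of 7 blood and endothelial and 6 of 6 fibroblast markers on the array. The exceptions were Foxa1, and Ttr and Hba-x, which had no tested probe. The summed linear level of each list was 104 and 97.4 (germ cell), 1.39 and 1.45 (mesoderm), 2.59 and 1.73 (endoderm), 3.80 and 5.64 (neural), 2.04 and 2.12 (blood) and 25.9 and 25.2 (fibroblast) times the 75th percentile. The part of other cells in the results was not tested, and in bulk RNA fewer cells of a type and less RNA per cell cannot be told apart.

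RNA of most of the selected genes was more abundant with DAZL than in the mock IP. Whether this extends to TFIID genes in general was not tested. Of 10 other TFIID and TAF genes, 2 were called higher with anti-V5 and 3 with anti-GFP, beside 14.6% and 16.3% of all genes. Their median log2 difference was 0.20 with anti-V5 and 0.17 with anti-GFP, beside -0.44 for all genes. Taf7, Taf9 and Tbp were between 4.38-fold and 12.7-fold higher with anti-V5 than in mock IP, and between 4.53-fold and 13.2-fold higher with anti-GFP. Taf2, a dim probe that was well above background on 1 of 2 mock IP arrays, lay 3.0 log2 units above mock IP with anti-V5 but 0.77 with the background correction by normexp. Taf4a, Taf5 and Tbpl1 were between 1.91-fold and 2.65-fold higher with anti-V5 than in mock IP. Taf1 and Taf12 lay close to the mock IP. Taf10 was lower than in mock IP, by 1.95-fold with anti-V5 and by 2.15-fold with anti-GFP. Both IPs were set against the same mock IP arrays, so their values are given side by side and do not replicate each other.

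Tbp encodes the DNA-binding core of TFIID and lies on chromosome 17 in the authors' deposited table, from which the chromosomes below are also taken. Its normalised log2 signal was 0.76 and 0.08 on the V5 IP arrays, 0.71 and 0.22 on the GFP IP arrays, -1.93 and -1.49 on the mock IP arrays and -0.91 and -0.89 on the input arrays. All 4 IP arrays lay above all 4 mock IP and input arrays. On the arrays' own scale this was 1100 and 1190 intensity units with anti-V5, 1050 and 1260 with anti-GFP, 92.1 and 273 in mock IP, and 520 and 589 in input. The log2 difference from mock IP was 2.13 ± 0.32 (SE of the fit) with anti-V5, 2.70 on slide 1 and 1.57 on slide 2, and 2.18 ± 0.32 with anti-GFP. The second Tbp probe, printed at 10 spots, gave 2.10 with anti-V5 and 2.25 with anti-GFP. The SD between its spots was 0.05 to 0.10 log2 units per array. Its difference from mock IP with anti-V5 was 2.73 on slide 1 and 1.48 on slide 2, a gap many times that SD.

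Tbpl1, on chromosome 10, encodes the TBP-like factor also called TRF2. Its signal was 3.35 and 2.99 with anti-V5, 3.39 and 3.07 with anti-GFP, 2.10 and 2.37 in mock IP, and 2.07 and 2.22 in input. The IP arrays again lay above all the others, while mock IP and input overlapped. The difference from mock IP was 0.94 ± 0.25 with anti-V5 and 0.99 ± 0.25 with anti-GFP for this probe, the brightest of 3 tested. The other Tbpl1 probes gave 1.39 and 2.54 with anti-V5 and 1.49 and 2.65 with anti-GFP, so the size of the enrichment of Tbpl1 depended on the probe and its direction was the same in all 3.

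**Figure D1:**
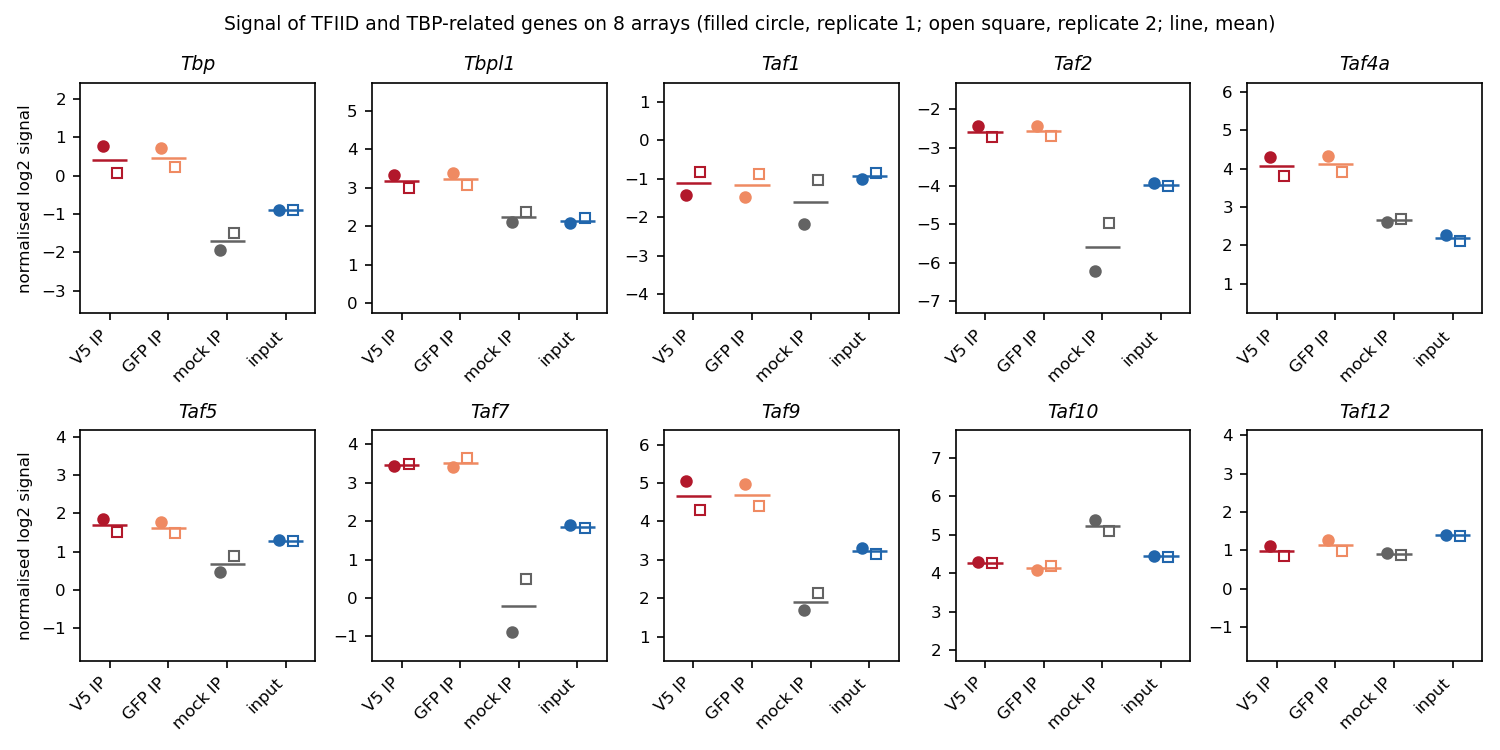
Normalised log2 signal of each gene (vertical axis, 1 panel per gene, all panels spanning the same number of log2 units) for V5 IP, GFP IP, mock IP and input, with replicate 1 as a filled circle, replicate 2 as an open square and the mean as a line. In Tbp, Tbpl1, Taf2, Taf4a, Taf5, Taf7 and Taf9 the 4 IP arrays lie above the 4 others, and in Taf10 they lie below them. Each gene is shown by its brightest tested probe, and the other Taf5 probes do not have this order.

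Among the large subunits, Taf1 encodes the scaffold of TFIID that contacts promoter DNA and reads acetylated histones through its bromodomains, and it lies on chromosome X. Its signal was -1.41 and -0.83 with anti-V5, -1.47 and -0.87 with anti-GFP, -2.18 and -1.04 in mock IP, and -1.0 and -0.84 in input. The 2 mock IP arrays differed by more than the group means, and V5 IP and GFP IP overlapped with both mock IP and input. The difference from mock IP was 0.49 ± 0.42 with anti-V5 and 0.44 ± 0.42 with anti-GFP. The 5 tested Taf1 probes lay between -0.54 and 0.49 with anti-V5 and between -0.66 and 0.44 with anti-GFP, and gave no common direction. Those listed under the same transcript record as the brightest lay at 0.49, 0.10 and 0.34 with anti-V5 and at 0.44, 0.16 and -0.02 with anti-GFP. Those under another record lay at -0.54 and -0.43 with anti-V5 and at -0.50 and -0.66 with anti-GFP. The last of these probes was well above background on 3 of 8 arrays.

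Taf2, on chromosome 15, encodes a subunit that binds the initiator region of promoters. Its probe was dim: the signal was -2.45 and -2.72 with anti-V5, -2.43 and -2.68 with anti-GFP, -6.20 and -4.96 in mock IP, and -3.92 and -4.01 in input. It was well above background on 1 of 2 mock IP arrays and on all 6 others. Taf2 was 7.99-fold higher with anti-V5 than in mock IP (log2 3.0 ± 0.40, 3.76 on slide 1 and 2.24 on slide 2) and 8.13-fold higher with anti-GFP (3.02 ± 0.40). With background correction by normexp, these log2 differences became 0.77 and 1.14. The second Taf2 probe gave 2.28 with anti-V5 and 1.88 with anti-GFP. It was dimmer still, and it too was well above background on 1 of 2 mock IP arrays.

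Taf4a, the file's name for Taf4, encodes a histone-fold subunit that is needed for the integrity of TFIID. Its signal was 4.31 and 3.81 with anti-V5, 4.34 and 3.93 with anti-GFP, 2.60 and 2.70 in mock IP, and 2.28 and 2.12 in input. For this probe the mock IP lay above input on both arrays, and the IPs lay above both. The difference from mock IP was 1.41 ± 0.27 with anti-V5 and 1.48 ± 0.27 with anti-GFP, and the second probe gave 1.67 and 1.81.

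Taf5, on chromosome 19, encodes a WD40-repeat subunit of the TFIID core. Its signal was 1.86 and 1.51 with anti-V5, 1.77 and 1.48 with anti-GFP, 0.47 and 0.88 in mock IP, and 1.30 and 1.29 in input. For this probe the IP arrays were the highest, but the step from input was small beside the step from mock IP. The other Taf5 probes differed from input by 0.07 and -0.06 with anti-V5 and by 0.17 and 0.02 with anti-GFP. In neither of them did all IP arrays lie above the input arrays. Taf5 was 2.01-fold higher with anti-V5 (log2 1.01 ± 0.26) and 1.94-fold higher with anti-GFP (0.95 ± 0.26) than in mock IP, and its 3 probes ranged from 0.75 to 1.01 with anti-V5.

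Taf7 encodes a subunit that binds TAF1 and restrains its activity until initiation, and it lies on chromosome 18. It had the largest difference of the 10 genes. Its signal was 3.45 and 3.48 with anti-V5, 3.41 and 3.63 with anti-GFP, -0.90 and 0.49 in mock IP, and 1.89 and 1.82 in input. In intensity units these were 7090 and 12600 with anti-V5, 6830 and 13400 with anti-GFP, 189 and 1080 in mock IP, and 3610 and 3860 in input. The mock IP arrays lay far below input and differed from each other by over 1 log2 unit, whereas the 4 IP arrays stayed close together. Taf7 was 12.7-fold higher with anti-V5 than in mock IP (log2 3.67 ± 0.42, 4.35 on slide 1 and 2.99 on slide 2) and 13.2-fold higher with anti-GFP (3.73 ± 0.42, 4.31 and 3.14). It ranked 8 of 19032 genes from the top in each of these comparisons. The other Taf7 probes gave 3.26 and 2.62 with anti-V5 and 3.25 and 2.19 with anti-GFP.

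The remaining genes encode histone-fold subunits that TFIID shares with SAGA. Taf9, on chromosome 13, is the partner of TAF6. Its signal was 5.06 and 4.29 with anti-V5, 4.99 and 4.39 with anti-GFP, 1.70 and 2.13 in mock IP, and 3.30 and 3.16 in input. No group overlapped with another except V5 IP with GFP IP. Taf9 was 6.78-fold higher with anti-V5 than in mock IP (log2 2.76 ± 0.35, 3.36 on slide 1 and 2.16 on slide 2) and 6.86-fold higher with anti-GFP (2.78 ± 0.35). A second probe gave 2.75 with anti-V5 and 2.76 with anti-GFP. Another probe with the name Taf9 in the files went the other way, at -0.88 with anti-V5 and -1.04 with anti-GFP, and RefSeq now lists its accession under Ak6, an adenylate kinase gene.

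Taf10, on chromosome 7, encodes a subunit that joins the TFIID lobes through pairing with TAF3 and TAF8. Its signal was 4.28 and 4.27 with anti-V5, 4.08 and 4.19 with anti-GFP, 5.37 and 5.10 in mock IP, and 4.46 and 4.42 in input. The IP arrays were the lowest and the mock IP arrays the highest. The difference from mock IP was -0.96 ± 0.22 with anti-V5 and -1.11 ± 0.22 with anti-GFP. Taf12, on chromosome 4, encodes the histone-fold partner of TAF4. Its signal was 1.12 and 0.86 with anti-V5, 1.28 and 0.99 with anti-GFP, 0.93 and 0.89 in mock IP, and 1.40 and 1.38 in input. V5 IP overlapped with mock IP, and the difference was 0.08 ± 0.23 with anti-V5 and 0.23 ± 0.23 with anti-GFP. Both genes have a single probe.

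**Figure D2:**
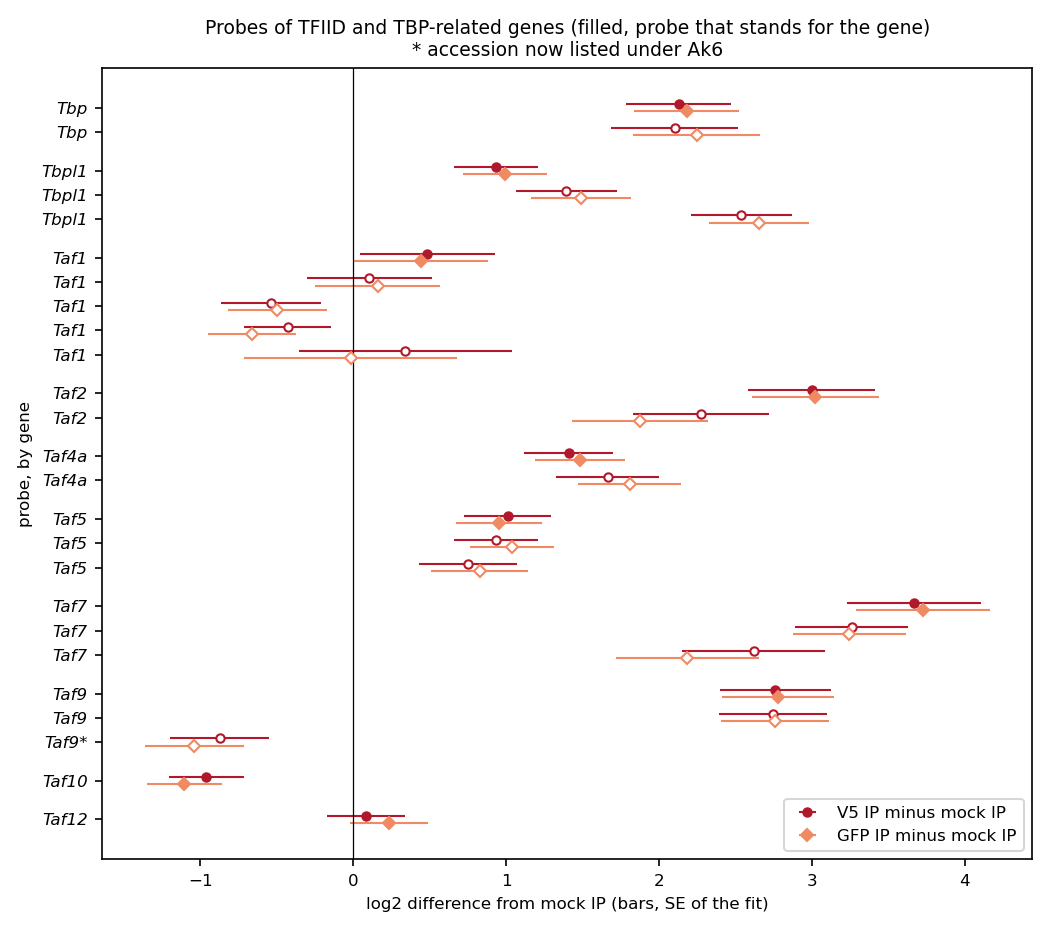
Log2 difference from mock IP (horizontal axis) for the 25 tested probes, by gene, for V5 IP (circles) and GFP IP (diamonds), with the SE of the fit as bars. The probes of Tbp, Tbpl1, Taf2, Taf4a, Taf5 and Taf7 all lie above 0, those of Taf1 lie on both sides of 0, and the Taf9 probe whose accession is now under Ak6 lies at -0.88 and -1.04.

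In V5 IP minus mock IP, 7 of the 10 genes were called higher by limma at an adjusted p under 0.05, where 14.6% of all genes were, and 1 (Taf10) was called lower, where 21.4% of all genes were. In GFP IP minus mock IP the counts were again 7, beside 16.3% of all genes, and 1, beside 26.5%. Since these contrasts count as used in the choice, nothing is read from these counts. Both V5 IP arrays lay above both mock IP arrays in 7 genes (22.3% of all genes) and below them in 1 (47.2%), and for GFP IP in 8 (23.8%) and 1 (48.2%). The 4 IP arrays lay above all 4 mock IP and input arrays in 7 genes (18% of all genes), and below them in Taf10 (25.4%). These counts use the brightest tested probe of each gene. The other Taf5 probes, and the Taf9 probe now listed under Ak6, did not have all IP arrays above the others. The median of the 10 genes was 1.21 with anti-V5 and 1.24 with anti-GFP, beside -0.44 for all genes in each. Within slide 1 it was 1.55 with anti-V5 and 1.52 with anti-GFP, and within slide 2 it was 0.87 and 0.96. Relative to the median of all genes, 9 of the 10 were above it in each IP and Taf10 was below.

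Neighbours in the order of enrichment were mostly not separated. Of 9 gaps between successive genes, 7 were smaller than the sum of both SEs with anti-V5 and 7 with anti-GFP. The gaps larger than that were those between Tbp and Taf4a (0.72 with anti-V5 and 0.70 with anti-GFP) and between Taf12 and Taf10 (1.04 and 1.34). With normexp, Taf2 lay below Taf4a. Without V5 IP array 1, 4 genes instead of 7 were called higher in V5 IP minus mock IP and without mock IP array 1, 3 were. Without GFP IP array 1, 4 were called higher in GFP IP minus mock IP. The lower call of Taf10 with anti-V5 was absent without V5 IP 1, V5 IP 2, mock IP 1, input 1 or input 2, and that with anti-GFP was absent without GFP IP 1. With normexp, 3 were called higher and 0 lower with anti-V5 and 4 and 0 with anti-GFP.

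The comparison with total input asks which RNAs were richer in the IP than in the cells' RNA as a whole. Among the brightest tested probes of the genes, Taf4a had the largest difference there. It was 3.63-fold with anti-V5 (log2 1.86 ± 0.27) and 3.82-fold with anti-GFP (1.94 ± 0.27). Taf7 followed with 3.05-fold and 3.17-fold, then Taf9 with 2.71-fold and 2.74-fold, and Taf2 with 2.61-fold and 2.65-fold. Tbp stood at 2.49-fold and 2.57-fold, and Tbpl1 at 2.03-fold with anti-V5 and 2.12-fold with anti-GFP. This order depended on the probe. Another tested Tbpl1 probe lay at log2 2.87 with anti-V5 and 2.99 with anti-GFP, above Taf4a, and the remaining Tbpl1 probe at 0.73 and 0.82. Another Taf7 probe lay at 2.62 and 2.61, and the remaining Taf7 probe at 1.25 and 0.82. With normexp, Taf2 lay at 0.04 with anti-V5 and 0.41 with anti-GFP on the log2 scale. Taf5 lay at 0.39 and 0.34 on that scale, with SEs of 0.26. Taf10 (-0.17 and -0.31), Taf12 (-0.40 and -0.25) and Taf1 (-0.20 and -0.24) lay at or below input. The number called higher was 6 of 10 with anti-V5, beside 14.1% of all genes, and 6 with anti-GFP, beside 16%. None of the 10 was called lower, beside 13.7% with anti-V5 and 16.8% with anti-GFP. Both IP arrays lay above both input arrays in 7 genes (30.7% of all genes with anti-V5 and 31.7% with anti-GFP) and below in 2 (39.6% and 41.2%). The median of the 10 was 1.17 with anti-V5 and 1.22 with anti-GFP, beside -0.11 for all genes in each. Without V5 IP 1, input 1 or input 2 the number called higher with anti-V5 was 1 instead of 6, and without GFP IP 1, input 1 or input 2 it was likewise 1 with anti-GFP. In each of these settings Taf4a was the gene that stayed called.

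**Figure D3:**
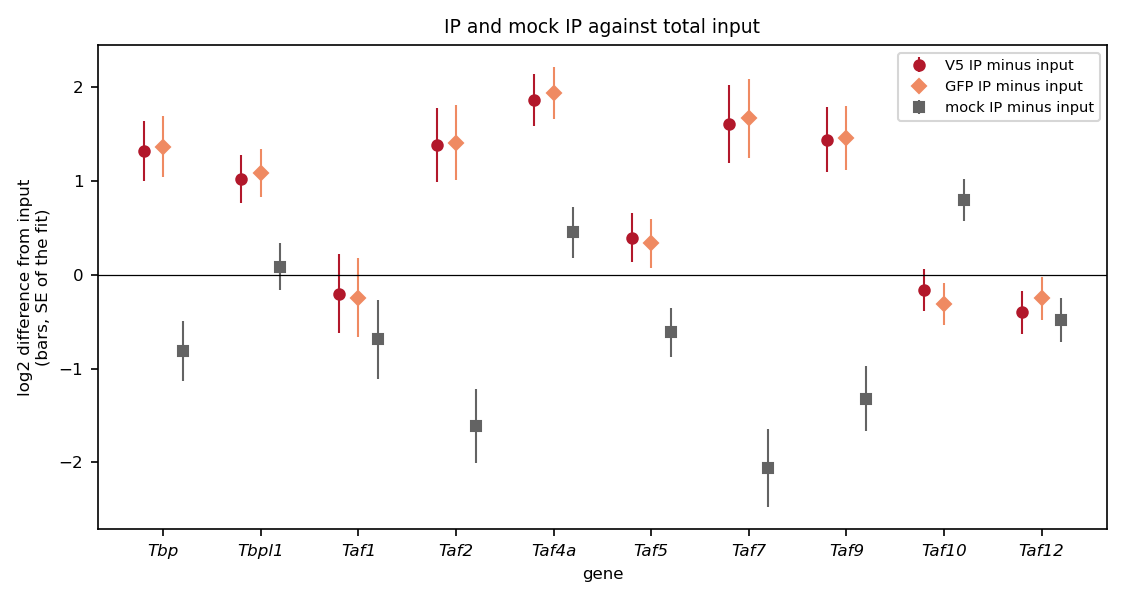
Log2 difference from input (vertical axis) for V5 IP (circles), GFP IP (diamonds) and mock IP (squares), with the SE of the fit as bars. Each gene is shown by its brightest tested probe. Taf7, Taf2, Taf9 and Tbp lie above 0 in the IPs and below 0 in the mock IP, Taf4a lies above 0 in all 3 and Taf10 lies above 0 in the mock IP only.

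The IPs and the mock IP departed from input in opposite directions for several of these genes. In mock IP, Taf7 was 4.17-fold lower than in input (log2 -2.06 ± 0.42), Taf2 3.06-fold lower (-1.62 ± 0.40), Taf9 2.50-fold lower (-1.32 ± 0.35) and Tbp 1.76-fold lower (-0.82 ± 0.32). The Taf2 probe was well above background on 1 of these 2 mock IP arrays, and its log2 difference was -0.73 with normexp. Taf10 was 1.74-fold higher in mock IP than in input (log2 0.80 ± 0.22). Taf4a (0.45 ± 0.27) and Tbpl1 (0.09 ± 0.25) were at or slightly above input. The fold of an IP over mock IP is the product of both departures. For the brightest Taf7 probe, V5 IP was 3.05-fold above input and mock IP 4.17-fold below it. Together these make up the 12.7-fold difference of V5 IP from mock IP. This split depended on the probe. The other tested Taf7 probes lay at -0.64 and -1.37 in mock IP minus input, and at 2.62 and 1.25 in V5 IP minus input. In mock IP minus input the second Taf2 probe lay at -1.01, the second Taf9 probe at -1.35 and the second Tbp probe at -1.11. For the brightest Taf4a probe the mock IP lay on the same side of input as the IPs. The second Taf4a probe lay at -0.09 in mock IP minus input, with -0.46 on slide 1 and 0.28 on slide 2. The other tested Tbpl1 probes lay at -0.67 and 0.33.

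In mock IP minus input, 0 of the 10 genes were called higher, beside 6.64% of all genes, and 2 (Taf7 and Taf2) were called lower, beside 4.03%. With the replicate number as a block, Taf9 was also called lower and Taf10 higher, which made 3 lower, beside 13.3% of all genes in that fit, and 1 higher, beside 21.4%. Both mock IP arrays lay above both input arrays in 2 genes (40.9% of all genes) and below them in 7 (26.3%). The median of the 10 was -0.65, with -0.93 on slide 1 and -0.45 on slide 2, beside 0.20 for all genes. Taf7 lost its call without mock IP 1, input 1 or input 2, and Taf2 without these or either GFP IP array, as 0 or 1 of the 10 were then called lower.

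V5 IP and GFP IP recover the same fusion protein through different tags, and their difference is not known to have entered the choice of the genes. The 10 genes differed by between -0.15 (Taf12) and 0.14 (Taf10) on the log2 scale in V5 IP minus GFP IP. None passed limma's test (adjusted p = 1 for each, lowest unadjusted p = 0.540 by limma), while 187 of 19032 genes (0.983%) had an unadjusted p under 0.05 and 0 an adjusted one. Called genes were thus 0% of all genes in either direction. Within slides the 10 differences lay between -0.16 and 0.20. In the fit without the replicate block, the 95% intervals of the difference reached from -1.03 to 1.02 over the 10 genes, and with the block from -0.88 to 0.83. Taf7 had a difference of -0.06 with an interval from -1.03 to 0.92 without the block and from -0.87 to 0.75 with it. With the block, 0 of the 10 genes and 1 of all genes (0.00525%) passed limma's test, that gene as higher with anti-V5, and 403 genes (2.12%) had an unadjusted p under 0.05. Both V5 IP arrays lay above both GFP IP arrays in 1 gene, Taf10 (9.97% of all genes), and below in 0 (6.68%).

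The other genes of the initiation machinery were counted in 4 lists made from textbook membership. The lists were made with earlier results of these arrays known. Most genes named below were picked as the highest or lowest of a list in these same contrasts. Their limma adjusted p-values, taken over all genes tested, are therefore a description, and no list was tested as a set. Of 10 other TFIID and TAF genes, 2 rose with anti-V5 over mock IP and 3 with anti-GFP, and 0 fell in either, beside 14.6% of all genes that rose and 21.4% that fell with anti-V5, and 16.3% and 26.5% with anti-GFP. Taf4b, the gonadal form of TAF4, rose 4.41-fold with anti-V5 (limma adjusted p = 0.0115) and 4.47-fold with anti-GFP (limma adjusted p = 0.00893), with 1 of 2 mock IP arrays well above background. With normexp its log2 difference was 0.42 with anti-V5 (limma adjusted p = 0.608) and 0.86 with anti-GFP (limma adjusted p = 0.324), against 2.14 and 2.16 without that correction. Taf7l, the germ cell form of TAF7, rose 2.81-fold with anti-V5 (limma adjusted p = 0.0162) and 2.84-fold with anti-GFP (limma adjusted p = 0.0115). Taf9b, a paralogue of Taf9, also rose with anti-GFP (log2 1.16, limma adjusted p = 0.0374) and lay at 1.08 with anti-V5 (limma adjusted p = 0.0524). The lowest of the list were Taf8, at -0.66 with anti-V5 and -0.60 with anti-GFP, and Tbpl2, at -0.26 and -0.39, and neither passed. The median of the list was 0.20 with anti-V5 and 0.17 with anti-GFP, beside -0.44 for all genes. Without mock IP 1 no gene of the list rose in either IP, and without V5 IP 1 none rose with anti-V5. Without GFP IP 1, 1 rose with anti-GFP. With the replicate block 4 rose and 1 fell with anti-V5, beside 19.4% and 38.4% of all genes.

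Among 15 other partners of TBP, from the RNA polymerase I and III factors to the repressor NC2, 2 rose and 4 fell with anti-V5. With anti-GFP, 3 rose and 5 fell. Over all genes, 14.6% rose and 21.4% fell with anti-V5, and 16.3% and 26.5% with anti-GFP. Dr1, the NC2 subunit that holds TBP on promoters and blocks further assembly, rose 8.90-fold with anti-V5 (limma adjusted p = 0.00212) and 8.55-fold with anti-GFP (limma adjusted p = 0.00186). Its signal was 4.36 and 3.99 with anti-V5, 4.09 and 4.14 with anti-GFP, 0.60 and 1.45 in mock IP, and 0.98 and 1.02 in input. Dr1 thus stood high in the IPs alone, at about the input level in the mock IP. Snapc1, of the small nuclear RNA activating complex, rose 5.99-fold with anti-V5 (limma adjusted p = 0.00215) and 5.87-fold with anti-GFP (limma adjusted p = 0.00196). Snapc2 of the same complex fell by 1.29 on the log2 scale with anti-V5 (limma adjusted p = 0.0218) and by 1.41 with anti-GFP (limma adjusted p = 0.0128). Taf1c, of the RNA polymerase I factor SL1, fell by 1.25 in each IP (limma adjusted p = 0.0234 with anti-V5 and 0.0174 with anti-GFP). Brf1 and Snapc4 also fell in both IPs, Snapc5 fell and Snapc3 rose with anti-GFP. The list median was -0.37 with anti-V5 and -0.62 with anti-GFP, beside -0.44 for all genes. Without V5 IP 1, mock IP 1, input 1 or input 2, 0 fell with anti-V5. With anti-GFP, 0 fell without GFP IP 1, 1 without mock IP 1 and 3 without mock IP 2. With the replicate block 4 rose with anti-V5, beside 19.4% of all genes in that fit.

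**Figure D4:**
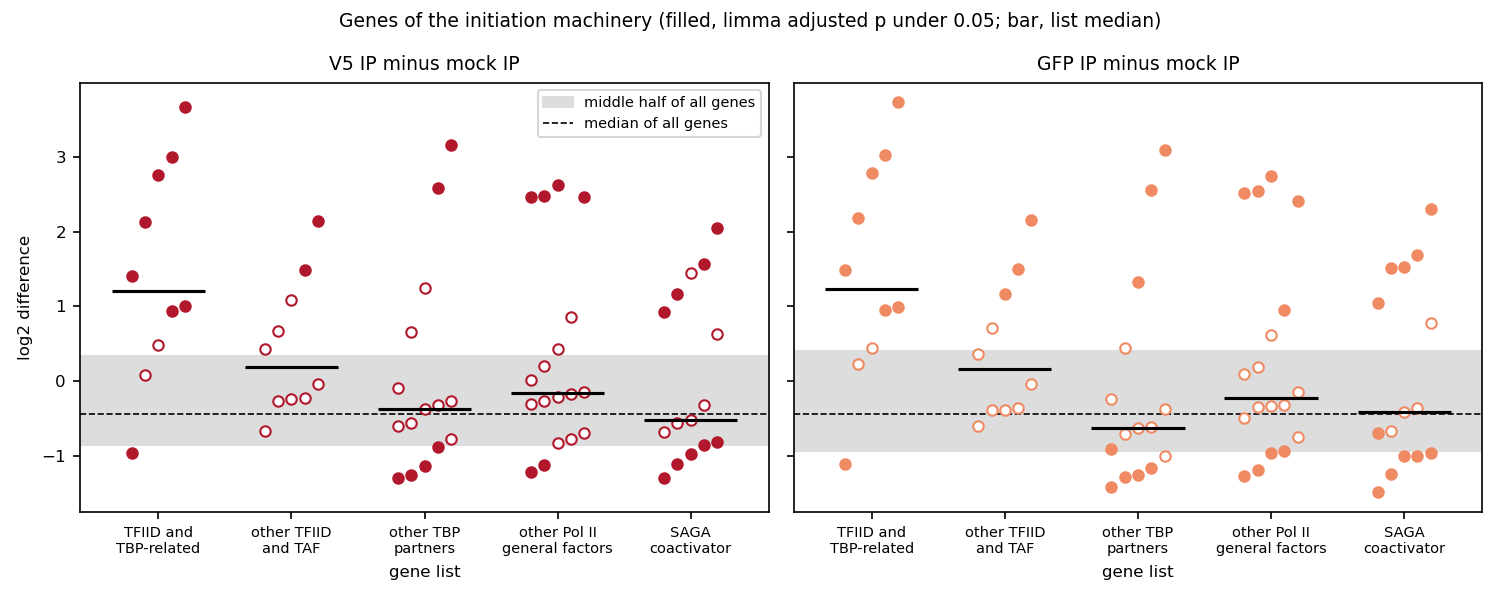
Log2 difference from mock IP (vertical axis) of the TFIID and TBP-related genes and of 4 lists of related genes, for V5 IP (left) and GFP IP (right), with filled points at a limma adjusted p under 0.05, bars at list medians, and the grey band and dashed line showing the middle quartiles and median of all genes. The medians of the 4 other lists lie between -0.52 and 0.20 with anti-V5. That of the 10 genes is 1.21, but this contrast counts as used in their choice, so nothing is read from the gap.

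Of 18 other general factors of RNA polymerase II, 4 rose and 2 fell with anti-V5, and 5 rose and 4 fell with anti-GFP. The shares of all genes that rose and fell were 14.6% and 21.4% with anti-V5, and 16.3% and 26.5% with anti-GFP. Gtf2e1, the large subunit of TFIIE, rose 6.13-fold with anti-V5 (limma adjusted p = 0.00243) and 6.68-fold with anti-GFP (limma adjusted p = 0.00196). Gtf2a1, the TFIIA subunit precursor that stabilises TBP on DNA, rose 5.50-fold with anti-V5 (limma adjusted p = 0.00212) and 5.82-fold with anti-GFP (limma adjusted p = 0.00184). Gtf2e2 of TFIIE and Gtf2h1 of TFIIH rose in both IPs too, and Gtf2f2 of TFIIF rose with anti-GFP. Ercc2, a TFIIH helicase, fell by 1.21 on the log2 scale with anti-V5 (limma adjusted p = 0.0194) and by 1.18 with anti-GFP (limma adjusted p = 0.0145). Gtf2f1, the large subunit of TFIIF, fell by 1.12 with anti-V5 (limma adjusted p = 0.0215) and by 1.26 with anti-GFP (limma adjusted p = 0.0118). Gtf2b and Gtf2a1l fell with anti-GFP. The list median was -0.16 with anti-V5 and -0.23 with anti-GFP. The falls with anti-V5 numbered 0 without V5 IP 1, mock IP 1, input 1 or input 2, 4 without mock IP 2 and 5 with the replicate block. The falls with anti-GFP numbered 0 without GFP IP 1, 1 without mock IP 1, and 2 without GFP IP 2, input 1 or input 2.

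SAGA, the histone-modifying coactivator that shares TAF9, TAF10 and TAF12 with TFIID, had 15 of 16 listed genes on the array by name. Of these, 4 rose and 5 fell with anti-V5, beside 14.6% and 21.4% of all genes. With anti-GFP, 5 rose and 6 fell, beside 16.3% and 26.5%. Atxn7, of the deubiquitinase module, rose 4.14-fold with anti-V5 (limma adjusted p = 0.0362) and 4.94-fold with anti-GFP (limma adjusted p = 0.0214), with 1 of 2 mock IP arrays well above background. With normexp it lay at 0.66 and 1.02 on the log2 scale and did not pass limma's test (adjusted p = 0.376 and 0.159). Kat2b, an acetyltransferase of the complex, rose 2.96-fold with anti-V5 (limma adjusted p = 0.0103) and 3.22-fold with anti-GFP (limma adjusted p = 0.00652). Taf6l, the SAGA form of TAF6, fell by 1.29 on the log2 scale with anti-V5 (limma adjusted p = 0.0228) and by 1.48 with anti-GFP (limma adjusted p = 0.0120). Sgf29, a reader of methylated histone H3, fell by 1.10 with anti-V5 (limma adjusted p = 0.0177) and by 1.24 with anti-GFP (limma adjusted p = 0.00955). Usp22 and Tada1 also rose in both IPs, Supt7l rose with anti-GFP, and Kat2a, Supt3 and Tada3 fell in both. The list median was -0.52 with anti-V5 and -0.41 with anti-GFP, close to all genes. With anti-V5, 0 rose and 0 fell without V5 IP 1, and 1 rose and 0 fell without mock IP 1, input 1 or input 2. The falls there numbered 1 without V5 IP 2 and 2 without GFP IP 1 or GFP IP 2. With anti-GFP, 1 rose and 0 fell without GFP IP 1, 2 rose and 3 fell without mock IP 1, and 2 fell without GFP IP 2. The list genes beyond the 2 highest and 2 lowest of each list were named after their values were seen.

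Patterns over the 8 arrays were compared by Pearson correlation of the normalised log2 signal, as a description over points that share slides. For Taf7 the 5 most similar genes were Psip1 (r = 0.997, with log2 differences from mock IP of 3.17 with anti-V5 and 3.13 with anti-GFP), Usp14 (0.996), Smarcad1 (0.996), Pias1 (0.995) and Srek1 (0.995). For Tbp they were Trmt10a (r = 0.998, with differences of 1.94 with anti-V5 and 1.99 with anti-GFP), Uimc1 (0.998), Ubqln1 (0.997), Vbp1 (0.997) and Ralgps2 (0.997). None of these encodes a subunit of TFIID. All 10 lay above mock IP in both IPs and below input in mock IP, which their choice by correlation with Taf7 or Tbp largely fixes.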

How the data were processed

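Each sample was hybridised to 1 single-colour Agilent array. Per the file headers, the deposited intensity values came from Agilent Feature Extraction 9.1.3.1, with background subtraction and spatial detrending in the processed intensity. The mean spot intensity and local median background of the same files served the normexp alternative (offset 50). The authors also deposited a table of background-subtracted signal, normalised to the median per the file headers, used as log2 of the signal plus 0.1. All of its 45018 entries were matched to a spot through the deposited quality score (tolerance 1e-06), which had no other use. No genome build is given in the sources used here.

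From the log2 processed intensity of each probe, its array's 75th percentile was subtracted. Outlier spots were dropped before spots of a probe were averaged. Tested probes had to be well above background on all arrays of any group (28103 of 41174 passed), and the brightest of them stood for its gene. Symbols came from the RefSeq gene table: 22951 probes were named by accession, 6659 by symbol and 3096 by synonym, and 8468 kept the file's name. The test was limma's moderated, two-sided test (version 3.58.1, R 4.3.3) on a fit of all 8 arrays, with Benjamini-Hochberg adjustment over 19032 genes. Since the spread is shared, arrays of a group outside a comparison also enter its p-values. SEs are those of this fit. In the plot by probe, the SE is that of a fit over all probes, without the filter. The script was tested on simulated data.

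Per the file headers, slide 1 held the first replicates and slide 2 the others, with every group at a fixed slide position, so that position and group cannot be told apart. Deviations from group means of arrays with the same number correlated at 0.299 to 0.778 over the 6 pairs of groups. The main fit, with its SEs and calls, has no term for this number. The fit with the replicate block, which treats the number as pairing, is given as an alternative. In V5 IP minus mock IP it called 19.4% of all genes higher and 38.4% lower, against 14.6% and 21.4% in the main fit. No pair of arrays held identical values. Precision is limited by the number of arrays.

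The 10 genes and the 4 lists were chosen with earlier results of these data known. Named from each list were the 2 genes with the highest and the 2 with the lowest mean of the log2 differences from mock IP in V5 IP and GFP IP, and for Taf7 and Tbp the 5 genes of highest correlation, without clone names. The alternatives were normexp, quantile normalisation, centring on the median of tested genes, no filter on dim probes, the authors' deposited table, only the groups compared, the replicate block, the mean of all kept probes and leaving out each array. No sequence is shown: probe and transcript sequences were not used here.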

Additional observations from a re-analysis of the deposited data

How the results depend on the processing

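With 2 arrays per group the calls depend on single arrays more than the differences do. Of 96 recomputed medians of the 10 genes, 92 stayed within the spread, and of 448 recomputed counts, 348 stayed within 1.5 times the main count. The cause of the changes was not tested, beyond fewer arrays or more features in the fit. With normexp, the 10 genes numbered 3 higher and 0 lower with anti-V5 and 4 and 0 with anti-GFP against mock IP, and 3 higher in each IP against input (medians 0.77 and 0.75), with 0 lower in mock IP minus input. No other TFIID or TAF gene then rose (0 in each IP), 0 TBP partners and 0 polymerase II factors fell in either IP, and SAGA genes had 1 higher and 0 lower with anti-V5 and 1 and 1 with anti-GFP. Centring or the authors' table left 2 SAGA falls with anti-V5 and 2 polymerase II falls with anti-GFP. Without a filter, TBP partners had 1 fall and SAGA 1 rise and 2 falls with anti-V5, polymerase II factors 2 falls with anti-GFP, and the 10 genes 0 lower in mock IP minus input. With only the groups compared, 0 of the 10 genes were lower in V5 IP minus mock IP or mock IP minus input, 0 partners, polymerase II factors or SAGA genes fell with anti-V5, and 2 polymerase II factors and 2 SAGA genes fell with anti-GFP. The replicate block gave 4 rises and 1 fall among other TFIID genes, 4 rises among TBP partners and 5 falls among polymerase II factors with anti-V5, and 1 of the 10 genes higher in mock IP minus input. It moved no other count of the 10 genes or of the 4 lists by over 1.5 times, whereas over all genes it made 21.4% higher and 13.3% lower in mock IP minus input, against 6.64% and 4.03%, and raised the share called lower to 24.2% with anti-V5 and 26.8% with anti-GFP against input. The mean of all kept probes gave medians of 1.58 with anti-V5 and 1.68 with anti-GFP against mock IP, 3 rises among polymerase II and among SAGA genes with anti-GFP, and 1 of the 10 genes lower in mock IP minus input.

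Leaving out each array in turn gave 3 to 7 higher and 0 to 1 lower of the 10 genes with anti-V5, and 4 to 7 and 0 to 1 with anti-GFP, against mock IP. Against input it gave 1 to 6 higher in each IP, and in mock IP minus input 0 to 1 higher and 0 to 3 lower. With anti-V5, rises and falls ranged from 0 to 4 (rises of other TFIID genes), 0 to 3 (falls of TBP partners), 0 to 4 (falls of polymerase II factors), 0 to 4 (rises of SAGA genes) and 0 to 5 (falls of SAGA genes). With anti-GFP they ranged from 0 to 4, 0 to 5, 0 to 4, 1 to 5 and 0 to 6 for the same sets. Tbpl2, which never passed, ranged from -0.70 to 0.18 with anti-V5 and from -0.82 to 0.05 with anti-GFP when single arrays were left out, and it changed sign to 0.24 with anti-GFP with normexp, to 0.18 with anti-V5 without V5 IP 2, to 0.17 with anti-V5 without mock IP 1 and to 0.05 with anti-GFP without mock IP 1. Over all genes, the split in V5 IP minus mock IP was 2776 higher and 4067 lower, against 950 and 10 with normexp, 2833 and 1557 with centring, 3055 and 1518 with the authors' table, 1945 and 974 without a filter, 2039 and 385 with only the groups compared and 3693 and 7311 with the block. The median of all genes there lay between -0.52 (no filter) and -0.23 (authors' table), so a lower call near that median depends on the scaling. Taf1, Taf12 and Taf10 lie nearest to it, and Taf10 lay between -1.10 and -0.78 over the 16 settings with anti-V5. Dim probes, such as those of Taf2 and Taf4b, are limited by signal over background.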
